A study of Mus musculus with 6 samples.

Results

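A list of 33 imprinted mouse genes was examined in differentiated podocytes. The genes were found by removing the version from the Ensembl identifiers of the count table and matching them to GENCODE M21 symbols, and all 33 had a row among the 57132 genes of the table. They lie in 17 imprinted clusters or loci, of which 7 held several of the genes and 10 held 1. The allele that is usually expressed is the maternal one for 12 of them, the paternal one for 20, and for Gnas either one, depending on the promoter.

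RNA was sequenced from 3 samples of immortalized WT podocytes (Col4a3+/+) and 3 samples of immortalized AS podocytes (Col4a3-/-). Podocytes are the epithelial cells that wrap the capillaries of the glomerulus, and Alport syndrome (AS) is a hereditary kidney disease caused by defects in type IV collagen. Both lines came from kidneys of male mice aged 8 weeks and carry H-2kb-tsA58, a transgene for a heat-sensitive large T antigen under an interferon-responsive promoter. Per the labels, both were kept at 33 °C with 20 U/mL interferon gamma, were differentiated at 37 °C for 14 days and received no treatment. Each genotype was represented by 1 line, made by crossing knockout mice to the transgenic strain, so genotype, cell line and strain background cannot be told apart. The samples of a line are numbered as sets 1 to 3. Nothing states that a set is a separate culture, so the p-values measure only the spread between these samples, which may be technical.

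Genomic imprinting marks the maternal and the paternal copy of a gene differently in the germ line, mostly by DNA methylation of a control region, and cells keep these marks after fertilization. Imprinted genes sit in clusters, and long non-coding RNAs such as H19, Kcnq1ot1, Airn and Meg3 are made from a single parental copy of their cluster. Many of the genes act on growth, such as Igf2, a growth factor, and Igf2r, the receptor that clears it. In the kidney they are known from Wilms tumour, in which the imprint of the human counterpart of the H19-Igf2 cluster is often lost. The deposited counts do not separate the parental alleles, so the values below are the sum of both copies.

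Expression is given as CPM, the count of a gene relative to the TMM-scaled size of its library. Total counts lay between 45417221 and 54290968 per sample, and a gene with 0 counts in a line can be at up to 0.0209 CPM (WT) or 0.0198 CPM (AS), which is 3 counts over the line and covers counting error only. The knocked-out gene Col4a3 had a mean level of 1087 CPM in the WT line and 68.8 CPM in the AS line and lay lower in every AS sample than in every WT sample. Among the podocyte markers, the transcription factor gene Tcf21 had no count in any sample. The summed CPM of the podocyte markers other than Col4a3 lay between 1722 and 1894 in WT and between 1291 and 1377 in AS samples, whereas that of 7 mesangial and stromal markers lay between 5767 and 7925 in WT and between 6844 and 7949 in AS samples. That sum is mostly Acta2, and 2 of these markers differed in opposite directions, Col1a1 with 24.3 CPM in the WT line and 477 CPM in the AS line, and Pdgfrb at 0.459 times its WT level. The sum lay between 44.6 and 52.2 in WT and between 37.8 and 42.9 in AS samples for 6 endothelial markers (Tie1 at 0), and between 373 and 419 in WT and between 275 and 386 in AS samples for 6 tubule markers (Umod and Aqp2 at 0). The endothelial sum was mostly Ehd3 (means of 48.6 CPM in WT and 40.6 CPM in AS), with Pecam1, Cdh5, Kdr and Emcn each under a mean of 1 CPM. Lrp2 (274 and 255 CPM) and Aqp1 (115 and 69.7 CPM) made up most of the tubule sum, with Slc34a1 and Slc12a1 under 1 CPM. For 5 leukocyte markers the sum was at most 3.14 in any sample (Adgre1 and Cd3e at 0). The part of the podocyte, stromal, endothelial and tubule values in the results was not tested. Fewer cells that express a gene and less RNA per cell cannot be told apart in such bulk samples.

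To show where the promoters of the members that differed most clearly are rich or poor in CG, the 250 bases before the transcription start are given for Grb10, Ppp1r9a, Igf2r and Mest, the 4 genes with the smallest adjusted p that had a RefSeq window, and for Airn, the antisense partner of Igf2r. Sequences and positions are those of RefSeq on GRCm38.p6 and run 5′ to 3′ on the strand of the gene. Where a gene has several starts, the window with the most CG dinucleotides was taken. Capitals mark CG, the dinucleotide that is methylated in imprint control.
Grb10, chr11:12037421-12037670, - strand: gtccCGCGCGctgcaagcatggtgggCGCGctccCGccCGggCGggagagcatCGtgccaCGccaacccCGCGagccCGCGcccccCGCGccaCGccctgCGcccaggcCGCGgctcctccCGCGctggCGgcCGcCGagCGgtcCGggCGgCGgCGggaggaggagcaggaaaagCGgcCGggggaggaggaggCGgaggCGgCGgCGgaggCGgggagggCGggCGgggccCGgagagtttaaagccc
Ppp1r9a, chr6:4903061-4903310, + strand: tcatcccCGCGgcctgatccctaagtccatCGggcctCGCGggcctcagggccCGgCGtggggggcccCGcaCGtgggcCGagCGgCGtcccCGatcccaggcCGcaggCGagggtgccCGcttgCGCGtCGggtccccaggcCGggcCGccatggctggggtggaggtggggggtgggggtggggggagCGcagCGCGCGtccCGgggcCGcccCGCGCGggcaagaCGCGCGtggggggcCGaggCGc
Igf2r, chr17:12769707-12769956, - strand: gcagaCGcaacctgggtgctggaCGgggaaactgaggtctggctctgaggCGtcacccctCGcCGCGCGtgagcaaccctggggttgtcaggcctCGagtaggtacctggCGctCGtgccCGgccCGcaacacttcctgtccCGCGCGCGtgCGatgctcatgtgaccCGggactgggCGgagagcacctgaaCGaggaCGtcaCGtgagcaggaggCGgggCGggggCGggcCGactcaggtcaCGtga
Mest, chr6:30737800-30738049, + strand: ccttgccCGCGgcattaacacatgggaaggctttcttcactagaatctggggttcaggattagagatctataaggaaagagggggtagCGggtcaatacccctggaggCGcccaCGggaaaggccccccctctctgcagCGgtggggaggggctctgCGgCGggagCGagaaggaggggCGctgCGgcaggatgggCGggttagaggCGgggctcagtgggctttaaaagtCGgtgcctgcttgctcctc
Airn, chr17:12741061-12741310, + strand: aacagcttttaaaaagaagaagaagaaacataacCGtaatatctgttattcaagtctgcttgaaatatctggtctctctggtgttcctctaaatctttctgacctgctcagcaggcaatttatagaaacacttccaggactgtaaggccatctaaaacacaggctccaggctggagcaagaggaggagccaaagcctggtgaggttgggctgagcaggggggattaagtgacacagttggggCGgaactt
These windows held 40 CG in Grb10, 35 in Ppp1r9a, 27 in Igf2r, 14 in Mest and 2 in Airn, so that the Igf2r window is rich in CG and the window of its antisense RNA is poor. Over the 29 members with a window used here the median was 14 CG, beside 6 CG over 27025 genes with a window. A count of 10 or more was found in 65.5% of these members and in 40.2% of all genes. The motif TGCCGC, which ZFP57 binds when methylated, was searched on both strands and was found in 6 members (20.7%) and in 9.14% of all genes. H19, Peg10, Sgce and Impact had no window. The median was 14 CG over the 7 members with a window that were higher in AS podocytes and 5 CG over the 5 that were lower. It was 13 CG over the 8 not called and 21 CG over the 9 not tested. Counts ran from 0 to 40 in the higher members and from 0 to 35 in the lower ones, so the ranges overlapped. Whether CG content differs between these groups was not tested.

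Several of the non-coding members are hosts of miRNAs, which mRNA libraries do not capture well. The miRNA genes listed in 7 hosts had 0 counts over the 6 samples in each case, including 14 in Mirg and 3 in Rian. The mature sequences of the miRNAs of H19 and Mest, hosts that were higher in AS podocytes, and of Meg3 and Rian, hosts that were lower, are shown (1 miRNA gene for each), with the seed (bases 2 to 8) in capitals. They are from RefSeq on GRCm38.p6.
mmu-miR-675-5p, chr7:142577112-142577133, - strand: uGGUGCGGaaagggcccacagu
mmu-miR-675-3p, chr7:142577078-142577099, - strand: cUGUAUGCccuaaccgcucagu
mmu-miR-335-5p, chr6:30741314-30741336, + strand: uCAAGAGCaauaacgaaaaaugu
mmu-miR-335-3p, chr6:30741354-30741375, + strand: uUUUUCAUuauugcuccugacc
mmu-miR-770-5p, chr12:109563710-109563731, + strand: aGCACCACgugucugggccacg
mmu-miR-770-3p, chr12:109563744-109563765, + strand: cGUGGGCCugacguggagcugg
mmu-miR-370-5p, chr12:109618270-109618289, + strand: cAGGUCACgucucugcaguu
mmu-miR-370-3p, chr12:109618305-109618326, + strand: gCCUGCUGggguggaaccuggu
No seed was shared among these 8 sequences, and a level of the mature miRNAs cannot be read from the counts of their hosts.

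Of the 33 genes, 24 passed the filter on low counts and were tested, 8 had too few counts, and Nap1l5 had no count. In AS podocytes 8 genes were higher (H19, Kcnq1ot1, Slc22a18, Igf2r, Airn, Zim1, Mest and Grb10) and 6 were lower (Meg3, Rian, Ppp1r9a, Ndn, Snrpn and Impact) when edgeR's quasi-likelihood test was used with a threshold of 0.05 on the p adjusted over all genes tested (Benjamini-Hochberg). These 14 genes were 58.3% of the members tested, beside 40.1% of the 16263 genes tested (20.4% higher and 19.6% lower). A fold change over 2 in addition to the adjusted p was reached by 9 members, and by 11.2% of all genes (4.59% higher and 6.59% lower). The median absolute log2 fold change was 0.89 over the members and 0.28 over all genes, whereas the medians with sign were -0.11 and 0.01. The members therefore moved in both directions. Their summed CPM was 1952 ± 44.7 for the WT samples and 2014 ± 61.3 for the AS samples (SD, n = 3 each). Much of this total came from Gnas, whose mean was 967 (WT) and 874 (AS). Once Gnas was left out, the total was 985 ± 71.9 (WT) and 1139.6 ± 61.2 (AS), a ratio of 1.16. Each AS sample (at least 1082) then lay above each WT sample (at most 1068). In this total the largest rises were those of Igf2r (mean 106 in WT and 216 in AS) and Grb10 (80.7 and 215). The largest fall was that of Peg3, from 376 to 323. The higher total thus reflects a few abundant genes and is no rise of the members in general.

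The filter, which asks for 0.206 CPM in any 3 samples, bears on these shares. Airn (in WT podocytes) and Meg3, Rian, Dlk1 and Asb4 (in AS podocytes) reached this minimum in 2 of the 3 samples of their lower line, so these 5 genes lay near it. Of the other 19 genes, which reached it in all samples, 11 (57.9%) passed the threshold, and their median absolute log2 fold change was 0.56. The CPM of the lines did not overlap in 19 of the 24 members, beside 52.3% of all genes. Among the maternally expressed genes 9 were tested, of which 5 were higher and 3 lower, and among the paternally expressed genes 14 were tested, of which 3 were higher and 3 lower. The share called was 88.9% of the maternal and 42.9% of the paternal genes tested, beside 40.1% of all genes. Meg3 and Rian, among the lower maternal genes, and Airn, among the higher paternal genes, belong to the 5 genes near the minimum. Whether the 2 classes differ was not tested.

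**Figure D1:**
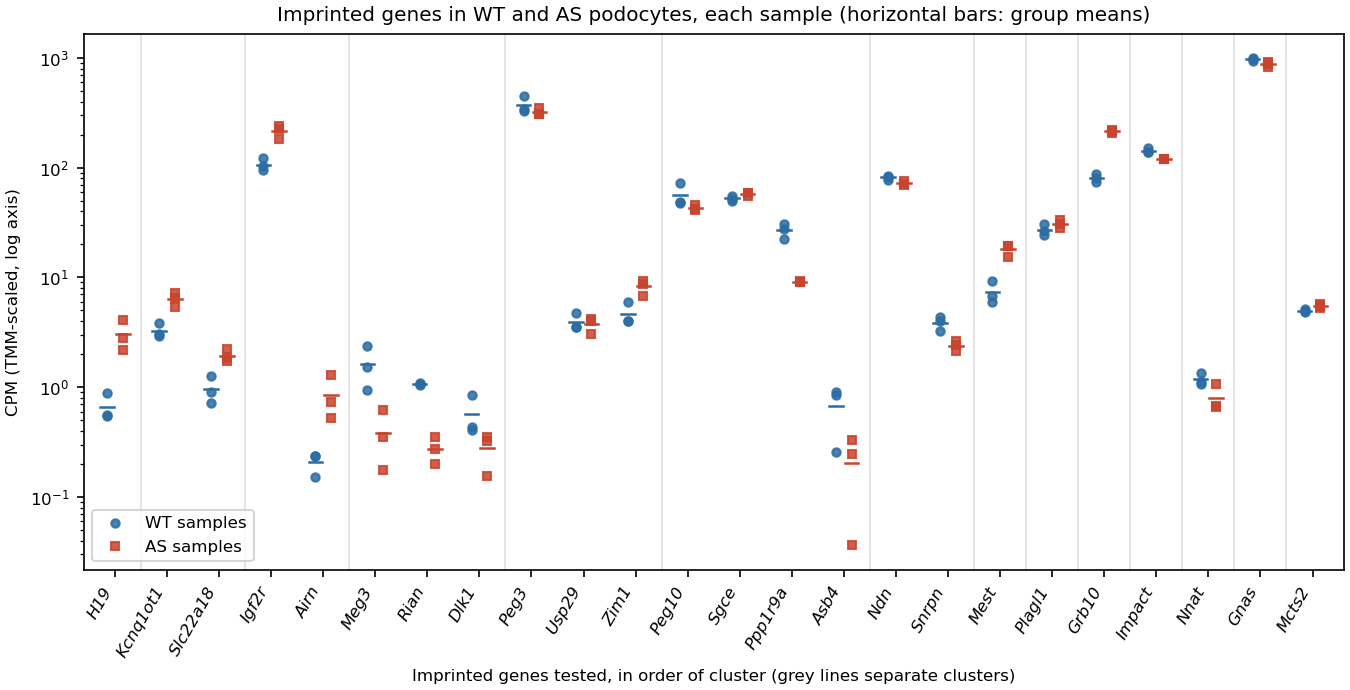
CPM of the 24 imprinted genes tested, on a log axis, in each of the 3 WT samples (blue circles) and 3 AS samples (red squares), with horizontal bars at the line means and grey lines between clusters. Grb10 and Igf2r lay far above their WT samples in all 3 AS samples and Ppp1r9a far below, while Peg3 and Usp29 overlapped.

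On the scale of CPM per kilobase of exon, which allows levels of different genes to be set side by side, Gnas, the gene of the stimulatory G protein alpha subunit, stood first in both lines with 86.5 in WT and 78.1 in AS podocytes. Peg3 (28.2) and Impact (27.7) followed in WT podocytes at nearly the same level, ahead of Ndn (22.0), Igf2r (11.4), Grb10 (8.88) and Peg10 (8.43). In AS podocytes Peg3 (24.3), Grb10 (23.7), Impact (23.5) and Igf2r (23.2) lay within the spread between samples of each other, so that Grb10 and Igf2r stood beside genes that were far above them in the WT line. H19, one of the most abundant RNAs of fetal tissues, was low on this scale in both lines, at 0.269 in WT and 1.23 in AS podocytes. With the length of the longest transcript in place of all exons, the AS levels were 42.6 for Grb10, 37.2 for Peg3 and 24.3 for Igf2r, with Impact between the latter, so this closeness depends on the exon length taken. On the exon lengths used first, the WT levels of Peg3 and Impact differed by less than the spread between samples.

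The H19-Igf2 cluster on chromosome 7 was higher in AS podocytes. H19 (ENSMUSG00000000031.19), a maternally expressed non-coding RNA, was at 0.888, 0.555 and 0.542 CPM in the WT samples and 4.11, 2.80 and 2.18 CPM in the AS samples. All AS samples lay above all WT samples, and the mean rose 4.58 times, from 0.662 ± 0.196 to 3.03 ± 0.983 CPM (SD, n = 3 each). The log2 fold change was 2.18 with a standard error of 0.31 (adjusted p = 0.000521, edgeR). Igf2, its paternally expressed partner, had 0, 0 and 1 counts in the WT samples and 21, 6 and 12 counts in the AS samples and was not tested. The rate of its counts was 37.0 times that in WT podocytes, with a 95% exact interval from 6.26 to 1498 that covers counting error only. Igf2 shares 62.8% of its exon bases with the overlapping gene Gm49394, which had 0 counts. The ratio of H19 to Igf2 was 8.81, 24.0 and 10.0 in the AS samples and could be computed in 1 WT sample only, where it was 25.0.

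In the neighbouring Kcnq1 cluster, both members with enough counts were higher in AS podocytes. Kcnq1ot1, the paternally expressed RNA that silences the cluster in cis, was at 3.87, 3.03 and 2.93 CPM in the WT samples and 7.15, 5.39 and 6.56 CPM in the AS samples. Every AS sample exceeded every WT sample, with a log2 fold change of 0.96 and a standard error of 0.17 (adjusted p = 0.00180, edgeR). Slc22a18, a maternally expressed membrane transporter gene, was at 0.907, 1.26 and 0.715 CPM in the WT samples and 2.22, 1.75 and 1.85 CPM in the AS samples, again without overlap. It differed by 1.01 on the log2 scale (standard error 0.26, adjusted p = 0.0130, edgeR). Cdkn1c, an inhibitor of the cell cycle in this cluster that Kcnq1ot1 is known to silence on the paternal copy and that is no member of the list, rose from 0.953 ± 0.459 to 2.36 ± 0.744 CPM (SD, n = 3 each; adjusted p = 0.0202, edgeR). Phlda2, a growth regulator of the placenta, had 1 count in WT and 0 in AS podocytes. Ascl2, a transcription factor of trophoblast, had 8 and 17 counts, a rate ratio of 2.02 with an exact 95% interval from 0.824 to 5.39. Kcnq1ot1 lies wholly within the body of Kcnq1 on the opposite strand, and Kcnq1 had at most 4 counts in any sample.

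The receptor Igf2r and its antisense RNA rose together on chromosome 17. Igf2r (ENSMUSG00000023830.15) was at 122, 94.4 and 103 CPM in the WT samples and 239, 184 and 223 CPM in the AS samples. The lowest AS sample lay above the highest WT sample, and the mean rose 2.03 times, from 106 ± 14.0 to 216 ± 28.2 CPM (SD, n = 3 each; log2 fold change 1.02, standard error 0.11, adjusted p = 0.000115, edgeR). Airn, the paternally expressed antisense RNA that silences the paternal copy of Igf2r in most tissues, was at 0.237, 0.235 and 0.152 CPM in the WT samples and 1.29, 0.739 and 0.527 CPM in the AS samples. The mean was 4.10 times that of WT, and the log2 fold change was 2.01 with a standard error of 0.45 (adjusted p = 0.00626, edgeR). The ratio of the counts of Igf2r to those of Airn was 515, 402 and 679 for WT1 to WT3 and 186, 249 and 423 for AS1 to AS3, ranges that overlapped. The exons of both genes share no base, although 3.17% of the exon bases of Airn lie within the body of Igf2r, and no source states that strand was used in counting.

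In the Dlk1-Dio3 cluster on chromosome 12, the maternally expressed non-coding RNAs Meg3 and Rian moved in the opposite direction, but not every member did. Meg3 (ENSMUSG00000021268.19) was at 0.947, 1.54 and 2.36 CPM in the WT samples and 0.178, 0.350 and 0.618 CPM in the AS samples. The highest AS sample stayed below the lowest WT sample, and the mean was 0.236 times that of WT (log2 fold change -2.05, standard error 0.47, adjusted p = 0.00705, edgeR). Rian, which lies downstream of Meg3 and hosts small nucleolar RNAs, was at 1.08, 1.09 and 1.04 CPM in the WT samples and 0.355, 0.272 and 0.200 CPM in the AS samples. Its WT samples were almost equal and far from the AS samples, and the mean was 0.257 times that of WT (log2 fold change -1.96, standard error 0.34, adjusted p = 0.00145, edgeR). Mirg, the miRNA host at the far end of these RNAs, had 7 counts in WT and 8 in AS podocytes, too few to tell. On the paternal side, Dlk1, a membrane protein related to the ligands of Notch, had 22, 40 and 19 counts in the WT samples and 7, 18 and 18 counts in the AS samples. These counts gave CPM ranges that did not overlap, while the log2 fold change of -1.01 had a 95% interval from -2.05 to 0.03 (adjusted p = 0.114, edgeR). Dio3, an enzyme that inactivates thyroid hormone, had 10, 3 and 8 counts in the WT samples and 33, 4 and 22 counts in the AS samples, so its samples overlapped, and the summed counts of 21 and 59 gave a rate ratio of 2.66 with an exact 95% interval from 1.60 to 4.62 for counting error. The 10 tested genes around the cluster had a median log2 fold change of 0.08, and none of them passed the threshold in edgeR's test.

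In the Peg3 cluster on chromosome 7, the maternally expressed Zim1 was higher in AS podocytes, while the paternally expressed members did not pass the threshold. Peg3, a zinc finger protein expressed from the paternal copy, was at 451, 345 and 331 CPM in the WT samples and 352, 308 and 309.9 CPM in the AS samples. These samples overlapped, and the log2 fold change of -0.22 had a 95% interval from -0.47 to 0.04 (adjusted p = 0.158, edgeR). Usp29, which shares its promoter region with Peg3 and 14.3% of its exon bases with the antisense gene Zim3 (0 counts), was at 3.94 ± 0.707 CPM in WT podocytes and 3.77 ± 0.611 CPM in AS podocytes (SD, n = 3 each; log2 fold change -0.07, 95% interval -0.49 to 0.36, adjusted p = 0.810, edgeR). Zim1, a zinc finger gene expressed from the maternal copy, had 304, 186 and 185 counts in the WT samples and 419, 448 and 375 counts in the AS samples, which are 4.66 ± 1.16 and 8.28 ± 1.30 CPM (SD, n = 3 each). Scaled to CPM, it was higher in every AS sample, by 0.83 on the log2 scale (standard error 0.19, adjusted p = 0.00764, edgeR). Within a sample, the count of Peg3 was 75.3, 86.9 and 82.6 times that of Zim1 in the WT samples and 37.8, 35.3 and 45.5 times in the AS samples, without overlap.

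The Peg10-Sgce cluster on chromosome 6 held the decrease with the smallest adjusted p among the members. Ppp1r9a (ENSMUSG00000032827.16), which encodes the actin-binding protein neurabin, was at 30.6, 22.3 and 27.6 CPM in the WT samples and 9.04, 9.10 and 9.19 CPM in the AS samples. The AS samples were nearly identical and lay at 0.339 times the WT mean (log2 fold change -1.56, standard error 0.12, adjusted p = 8.98e-06, edgeR). Peg10, a gene derived from a retrotransposon and needed in the placenta, was at 48.6, 71.9 and 48.1 CPM in the WT samples and 45.3, 41.4 and 41.8 CPM in the AS samples. All its AS samples lay lower, with WT replicate 2 standing above the other WT samples, and it missed the threshold narrowly (log2 fold change -0.39, 95% interval -0.71 to -0.08, adjusted p = 0.0505, edgeR). It passed with the DESeq2 size factors in edgeR at -0.40 (adjusted p = 0.0461), and without WT replicate 1 or 3 at -0.49 (adjusted p = 0.0119 and 0.0276, edgeR). Peg10 passed as well with DESeq2 (adjusted p = 0.0155), and in edgeR with no filter (adjusted p = 0.000236) and a replicate block (adjusted p = 0.0350). It missed the threshold in the other 8 alternatives. It was at -0.18 without WT replicate 2 (adjusted p = 0.0950, edgeR) and at -0.20 with the median of each chromosome removed (adjusted p = 0.257, edgeR). Sgce, the epsilon-sarcoglycan gene that starts beside Peg10 on the other strand, was at 52.0, 55.6 and 49.7 CPM in the WT samples and 59.0, 54.7 and 58.8 CPM in the AS samples. Its samples overlapped (log2 fold change 0.13, 95% interval -0.01 to 0.28, adjusted p = 0.129, edgeR). Genes of chromosome 6 as a whole were shifted down in AS podocytes, with a median log2 fold change of -0.20, and once the median of each chromosome was removed Sgce was higher by 0.32 (adjusted p = 0.00412, edgeR). Asb4, a subunit of a ubiquitin ligase, had 13, 40 and 42 counts in the WT samples and 11, 17 and 2 counts in the AS samples, with a log2 fold change of -1.73 and a 95% interval from -3.26 to -0.19 (adjusted p = 0.0712, edgeR). It passed without WT replicate 1, at -2.12 (adjusted p = 0.0203, edgeR). Asb4 passed as well with DESeq2 at -1.74 (adjusted p = 0.0398) and with no filter at -1.72 (adjusted p = 0.00799, edgeR). It missed the threshold in the other 10 alternatives. Within a sample, the ratio of Ppp1r9a to Sgce was 0.590, 0.401 and 0.555 for WT1 to WT3 and 0.153, 0.166 and 0.156 for AS1 to AS3, and that of Sgce to Peg10 was 1.07, 0.774 and 1.03 for WT1 to WT3 and 1.30, 1.32 and 1.41 for AS1 to AS3.

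**Figure D2:**
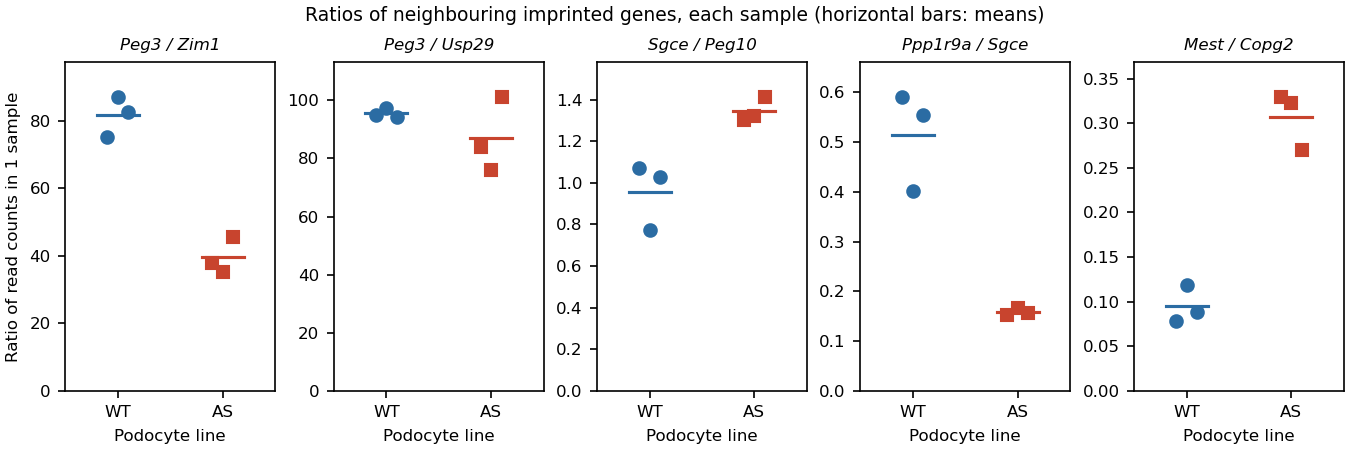
Ratio of the read counts of neighbouring imprinted genes within each of the 3 WT samples (blue circles) and 3 AS samples (red squares), with horizontal bars at the line means and axes that start at 0. The lines did not overlap for Peg3 to Zim1, Sgce to Peg10, Ppp1r9a to Sgce and Mest to Copg2, whereas Peg3 to Usp29 overlapped.

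In the Prader-Willi cluster on chromosome 7, Snrpn was lower in AS podocytes, and Ndn was lower by a small amount that depended on the settings. Ndn, a member of the MAGE family that restrains the cell cycle, was at 84.0, 77.1 and 83.0 CPM in the WT samples and 70.1, 75.9 and 70.6 CPM in the AS samples, with AS replicate 2 just below WT replicate 2. The difference of -0.17 on the log2 scale (standard error 0.06, adjusted p = 0.0433, edgeR) was close to the threshold and lost it in 4 of the 6 fits that left out 1 sample, those without WT replicate 1 or 3 or AS replicate 1 or 3, with an adjusted p of up to 0.144. It lost it as well with library size as the only scaling (adjusted p = 0.0890, edgeR) and with no filter (adjusted p = 0.0839, edgeR). Snrpn, which encodes a protein of the spliceosome, was at 4.02, 4.32 and 3.25 CPM in the WT samples and 2.40, 2.14 and 2.62 CPM in the AS samples, without overlap. Its mean was 0.617 times that of WT (log2 fold change -0.70, standard error 0.18, adjusted p = 0.0117, edgeR). This value is uncertain, because 27.3% of the exon bases of Snrpn are shared with the overlapping gene Gm38393 and 10% with Snurf. Magel2 had 1 count in WT and 0 in AS podocytes.

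The members that stand alone in their locus included the gene with the smallest adjusted p of the list. Grb10 (ENSMUSG00000020176.18, chromosome 11), an adaptor that restrains insulin and growth factor signalling and is maternally expressed outside the brain, was at 80.2, 74.8 and 87.2 CPM in the WT samples and 217, 207 and 222 CPM in the AS samples. Its replicates were close to each other and far from the other line, with means of 80.7 ± 6.19 and 215 ± 7.61 CPM (SD, n = 3 each), a rise of 2.67 times (log2 fold change 1.42, standard error 0.07, adjusted p = 5.09e-07, edgeR). Mest (ENSMUSG00000051855.16, chromosome 6), a paternally expressed gene of the mesoderm, was at 5.98, 9.19 and 6.83 CPM in the WT samples and 19.4, 19.3 and 15.4 CPM in the AS samples. It was 2.45 times as high in AS podocytes, without overlap (log2 fold change 1.30, standard error 0.16, adjusted p = 0.000250, edgeR). Mest shares 23.1% of its exon bases with Copg2 on the opposite strand, and Copg2 fell by 0.39 on the log2 scale (adjusted p = 0.000302, edgeR). No source states that strand was used, so reads of both genes cannot be told apart in these shared bases. The count of Mest was 0.0781, 0.119 and 0.0888 times that of Copg2 in the WT samples and 0.329, 0.323 and 0.270 times in the AS samples.

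Impact, a regulator of translation under amino acid shortage, was at 139, 138 and 150.1 CPM in the WT samples and 119, 121 and 120.0 CPM in the AS samples. Its samples did not overlap, and the difference was small (log2 fold change -0.24, standard error 0.05, adjusted p = 0.00632, edgeR). Chromosome 18, on which it lies, had a median of -0.11, and with the chromosome medians removed Impact was at -0.15 and lost the threshold (adjusted p = 0.0880, edgeR). Gnas was at 933, 995 and 974 CPM in the WT samples and 878, 912 and 832 CPM in the AS samples, and these ranges did not overlap although the adjusted p was 0.0997 in edgeR's test (log2 fold change -0.15, 95% interval -0.29 to -0.00). It passed without WT replicate 1, at -0.17 (adjusted p = 0.0355, edgeR). Its counts add up the transcripts of several promoters with different imprinting, and 8.83% of its exon bases are shared with the antisense gene Nespas. Plagl1, a zinc finger factor of growth control, was at 27.3 ± 3.45 CPM in WT podocytes and 30.7 ± 2.75 CPM in AS podocytes (SD, n = 3 each; log2 fold change 0.17, 95% interval -0.06 to 0.40, adjusted p = 0.225, edgeR). It lies on chromosome 10, whose genes had a median of 0.31, and with the chromosome medians removed its value was -0.15 (adjusted p = 0.258, edgeR).

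Nnat, a small membrane protein gene that lies inside Blcap, was at 1.18 ± 0.145 CPM in WT podocytes and 0.800 ± 0.230 CPM in AS podocytes (SD, n = 3 each; log2 fold change -0.56, 95% interval -1.21 to 0.08, adjusted p = 0.152, edgeR). Mcts2, a retrogene inside H13, was at 4.97 ± 0.148 and 5.48 ± 0.191 CPM (SD, n = 3 each; log2 fold change 0.14, 95% interval -0.14 to 0.42, adjusted p = 0.402, edgeR), and its reads may be split with its source gene Mcts1. Rasgrf1, an exchange factor for Ras, had 2 counts in WT and 3 in AS podocytes, and Zdbf2 had 8 and 4. Nap1l5, another retrogene, had 0 counts in both lines, while its host Herc3 fell by 1.24 on the log2 scale (adjusted p = 2.64e-05, edgeR).

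Because the median fold change differs between chromosomes, each member was set beside its surroundings, the 5 nearest tested protein-coding genes on either side of its cluster. Only the members were left out, so some neighbours are themselves reported as imprinted. Examples are Cobl for Grb10, Copg2 for Mest, Cdkn1c for H19 and Igf2, and Atp10a, Ube3a, Mkrn3 and Peg12 for the Prader-Willi cluster. Gm38393 and Copg2 also share exon bases with Snrpn and Mest. These medians are therefore not a baseline free of imprinted genes. Around Grb10 the neighbours had a median log2 fold change of -0.55, with 1 of the 10 genes higher and 6 lower, so Grb10 moved against its neighbours. The neighbours of Mest had a median of -0.30, with 0 higher and 7 lower, also opposite to Mest. Those of Igf2r and Airn had a median of 0.10, those of H19 and Igf2 of -0.01 and those of the Kcnq1 cluster of 0.08, beside the larger values of the members. Around the Peg10-Sgce cluster the median was -0.37, beside -0.39 for Peg10 and -1.56 for Ppp1r9a. The median was -0.29 around the Prader-Willi cluster, beside -0.17 for Ndn and -0.70 for Snrpn. It was 0.23 around Plagl1, beside 0.17 for Plagl1. With 10 genes on either side where that many were tested, it was -0.20 around the Peg10-Sgce cluster, -0.05 around the Prader-Willi cluster and 0.20 around Plagl1. Around Grb10 it was -0.21, with 2 genes higher and 10 lower. The medians around Grb10 and the Peg10-Sgce and Prader-Willi clusters thus depended on the window. With the median of each chromosome removed, 14 members passed the threshold, 9 higher and 5 lower.

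**Figure D3:**
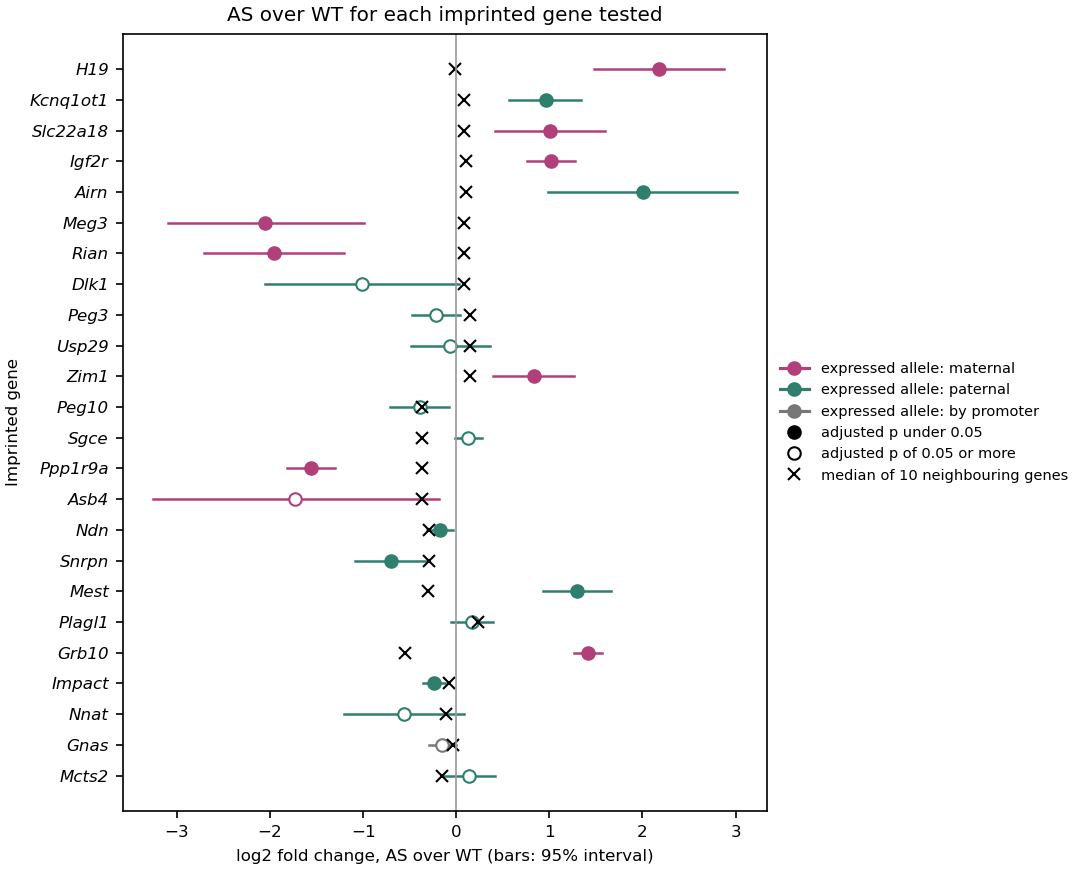
Log2 fold change of AS over WT podocytes for the 24 imprinted genes tested, in order of cluster, with bars for the 95% interval, filled circles for an adjusted p under 0.05 in edgeR's test, colours for the allele usually expressed and crosses for the median of the 10 neighbouring genes. H19, Igf2r, Mest and Grb10 lay above their neighbours and Meg3, Rian and Ppp1r9a below, whereas Peg10 and Plagl1 lay near their crosses for this window.

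A further list of 55 genes reported as imprinted in the mouse was set beside the members. Of these, 34 were tested, and 5 were higher and 11 lower in AS podocytes (47.1%, beside 40.1% of all genes), with a median absolute log2 fold change of 0.34. The 5 with the smallest adjusted p and a mean of at least 1 CPM in either line were all lower. Pon2, a paraoxonase gene beside the Peg10-Sgce cluster, was at 138, 159 and 162 CPM in the WT samples and 87.6, 85.7 and 83.2 CPM in the AS samples (log2 fold change -0.84, standard error 0.07, adjusted p = 1.74e-05, edgeR). Peg13, a non-coding RNA within Trappc9, changed by -0.73 (adjusted p = 2.87e-05, edgeR). Cobl, the neighbour of Grb10 and an actin nucleator, was at 281 ± 0.366 CPM in WT podocytes and 192 ± 3.42 CPM in AS podocytes (SD, n = 3 each). Its log2 fold change of -0.55 (adjusted p = 3.53e-05, edgeR) was opposite to that of Grb10. Inpp5f, a phosphoinositide phosphatase, changed by -0.69 (adjusted p = 3.59e-05, edgeR), and Adam23, near Zdbf2, by -1.83 (adjusted p = 9.34e-05, edgeR). All 3 AS samples of these 5 genes lay below all WT samples.

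A list of 24 genes that set, read or keep imprints was examined as well. Of the 21 tested, 6 were higher and 4 lower in AS podocytes (47.6%, beside 40.1% of all genes), none by a fold change over 2, and their median log2 fold change was 0.07. Zfp57, the zinc finger protein that protects methylated imprints after fertilization, was at 17.8, 20.9 and 20.3 CPM in the WT samples and 29.0, 39.0 and 33.0 CPM in the AS samples. It was 1.71 times as high, without overlap (log2 fold change 0.78, standard error 0.11, adjusted p = 0.000540, edgeR). Its partner Trim28 was at 191 ± 12.4 and 189 ± 6.25 CPM (SD, n = 3 each; 95% interval of the log2 fold change -0.16 to 0.12). The demethylases Kdm1b, which acts on histones, and Tet3, which acts on DNA, were higher by 0.60 and 0.61 on the log2 scale (adjusted p = 0.000582 and 0.00735, edgeR). Ehmt1, a histone H3 lysine methyltransferase, was higher by 0.35 (adjusted p = 0.00188, edgeR), and Ctcf, the insulator protein of the H19-Igf2 control region, by 0.30 (adjusted p = 0.0164, edgeR).

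Dnmt1 and Uhrf1, which act in maintenance methylation, were lower. Dnmt1, which copies methylation to the new strand, was at 72.9, 63.5 and 55.2 CPM in the WT samples and 52.5, 47.9 and 51.9 CPM in the AS samples, without overlap (log2 fold change -0.33, standard error 0.10, adjusted p = 0.0206, edgeR). Uhrf1, which brings Dnmt1 to replicating DNA, was at 18.6, 24.4 and 12.4 CPM in the WT samples and 9.12, 10.0 and 11.7 CPM in the AS samples, with WT replicate 3 close to AS replicate 3 (log2 fold change -0.85, standard error 0.21, adjusted p = 0.0107, edgeR). Suv39h1, a histone H3 lysine methyltransferase of heterochromatin, changed by -0.39 (adjusted p = 0.00557, edgeR). Of the enzymes that set methylation anew, Dnmt3a was at 91.6 ± 17.6 and 95.2 ± 5.54 CPM (SD, n = 3 each; log2 fold change 0.06, 95% interval -0.21 to 0.32, adjusted p = 0.741, edgeR). Dnmt3b was at 1.24 ± 0.451 and 2.07 ± 0.206 CPM (SD, n = 3 each; log2 fold change 0.74, adjusted p = 0.0672, edgeR). DNA methylation was not measured in these libraries.

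**Figure D4:**
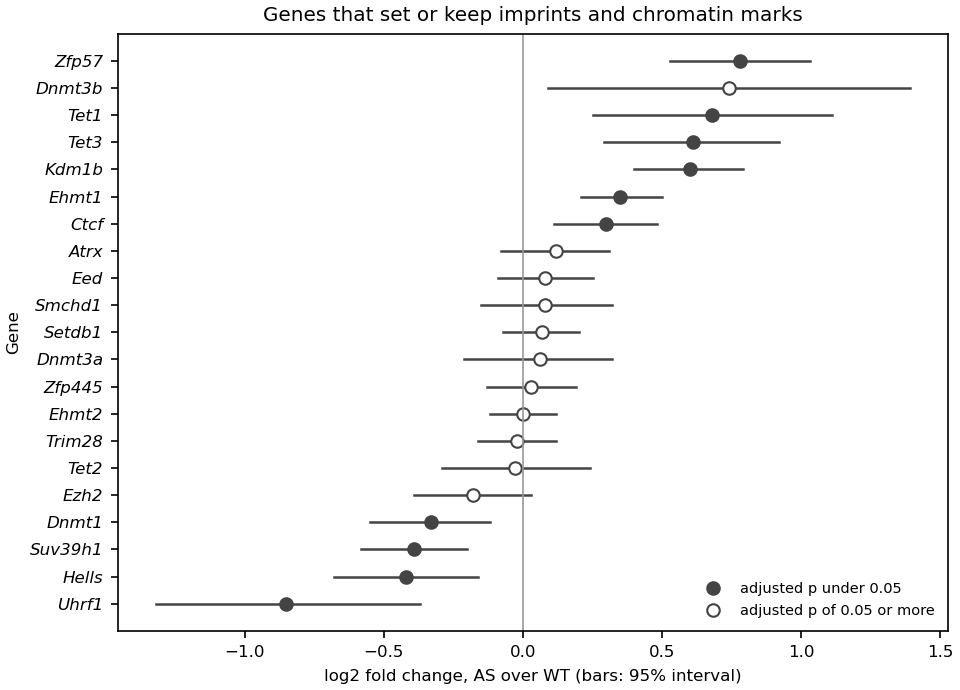
Log2 fold change of AS over WT podocytes for the 21 tested genes that set or keep imprints, in order of the fold change, with bars for the 95% interval and filled circles for an adjusted p under 0.05 in edgeR's test. Zfp57 lies at the top with 0.78 and Uhrf1 at the bottom with -0.85.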

How the data were processed

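Libraries of 3 WT and 3 AS samples were compared. The values are raw counts as the authors deposited them, whole numbers of reads for each gene, from mRNA libraries made with 15 cycles of PCR. The submitters' processing notes name FastQC, Trim Galore, STAR, edgeR and the build mm39, whereas the counting tool, its strand setting and the annotation release were not given in the sources used here. GENCODE M21 gave names to 51880 of 57132 identifiers. Their builds differ, so positions are given for RefSeq sequences on GRCm38.p6 only. No column was left unused (0).

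The main test was that of edgeR 4.0.16 in R 4.3.3 (filterByExpr with minimum count 10 and minimum total 15, TMM, and the quasi-likelihood test, two-sided, genotype as the only term, Benjamini-Hochberg over 16263 genes). Standard errors were approximated from the F statistic (log2 fold change over its square root), and the 95% intervals use them. Alternatives used limma 3.58.1 (voom), DESeq2 1.42.0, other scalings and filters, a replicate block, chromosome medians removed and 1 sample left out. The scripts were checked on simulated data. With 3 samples a line, an exact permutation test reaches p = 0.10 at the lowest. Promoter windows and miRNAs came from RefSeq tables, and exon lengths from the union of exons.

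The members and lists were chosen with earlier results of these data known. All members are accounted for. Members with a mean of at least 1 CPM in either line are given with values, and from the further lists the 5 smallest adjusted p and a few fixed genes (Dnmt1, Dnmt3a, Dnmt3b, Uhrf1, Ctcf, Zfp57 and Cdkn1c). Airn, Igf2, Dlk1, Dio3, Asb4 and Trim28, and the miRNAs and promoters shown, were given in more detail after their values were seen.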

Additional observations from a re-analysis of the deposited data

How the results depend on the processing

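Across the alternatives with another scaling, tool, filter or chromosome medians removed, 11 to 17 of the members passed the threshold, beside 14. The lowest count came with a mean CPM of at least 1, which tested fewer members, and the highest with DESeq2 and with no filter. With 1 sample left out, 13 to 17 members, 14 to 16 of the further imprinted genes, 7 to 13 of the genes that keep imprints and 5120 to 6776 of all genes passed. Of 330 values of the 24 members, 305 had the sign and the call of the values reported, 14 gained the threshold, 8 lost it and 3 changed sign. Of the 14 members called, 13 (all but Ndn) kept the call in all 6 fits with 1 sample left out. The log2 fold change of Usp29 ran from -0.16 to 0.09 when 1 sample was left out, being 0.09 without WT replicate 1 and 0.07 without AS replicate 3. Plagl1 turned to -0.15 with chromosome medians removed, since the median of chromosome 10 was 0.31. With 10 genes on each side, the neighbours had a median of -0.21 for Grb10, -0.28 for Mest, -0.20 for the Peg10-Sgce cluster and -0.05 for the Prader-Willi cluster.

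The deviations of samples with the same replicate number correlated at 0.147, 0.0939 and 0.0526. A pairing was accepted only if all 3 values exceeded 0.10 or the labels tied the samples together, so the numbers were not taken to pair the samples, although 5 of the 6 samples correlated best with their own number, which is a hint from the data at a pairing. With the replicate number as a block, 15 members passed, 8 higher and 7 lower (Peg3 at -0.21 and Peg10 at -0.37 were gained, Ndn at -0.17 was lost), and 7066 of all genes. The genes with few counts, such as Igf2, Mirg and Dio3, are limited by depth, and at this depth a difference in Phlda2, Magel2, Rasgrf1, Zdbf2 or Nap1l5 was not detectable.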

Other observations

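Among the further imprinted genes, those higher in AS podocytes and not described above are given here, chosen after their values were seen. Dcn, which encodes the matrix proteoglycan decorin, was at 0.276, 0.342 and 0.997 CPM in the WT samples and 2.62, 2.90 and 1.53 CPM in the AS samples, without overlap (log2 fold change 2.13, standard error 0.46, adjusted p = 0.00513, edgeR). Gatm, the first enzyme of creatine synthesis, rose from 9.08 ± 0.149 to 15.1 ± 1.05 CPM (SD, n = 3 each; adjusted p = 0.000276, edgeR). Atp10a, a phospholipid flippase next to the Prader-Willi cluster, rose from 2.38 ± 0.0286 to 4.33 ± 0.229 CPM (SD, n = 3 each; adjusted p = 0.00146, edgeR), while Ube3a in the same region was at 159.9 ± 12.8 and 154 ± 3.81 CPM (95% interval of the log2 fold change -0.21 to 0.09). Gab1, an adaptor of growth factor receptors, was higher by 0.58 on the log2 scale (adjusted p = 0.00472, edgeR).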
